A study of Homo sapiens with 18 samples.

Results

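A-kinase anchoring proteins (AKAPs) are scaffolds that bind the regulatory subunits of protein kinase A (PKA) and hold the kinase at a given place in the cell. The values described here are the mRNA levels of 10 such genes, chosen by name: AKAP1, AKAP2, AKAP6, AKAP7, AKAP8, AKAP9, AKAP10, AKAP11, AKAP12 and AKAP13. They are 10 of the 34255 genes that could be summed from the transcript counts, and all 10 were among the 15519 genes with enough counts to be tested. No measured value was used to choose them, but they were chosen with earlier results of these data known.

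RNA-seq libraries came from HEK293 cells, a human embryonic kidney line, in 6 groups of 3 replicates each. The groups were wildtype cells, β-arrestin1/2 KO cells, made by CRISPR-Cas9 and lacking the adaptors that bind activated receptors, and Gαs KO cells, made in the same way and lacking the G protein subunit that activates adenylyl cyclase, each given vehicle (basal) or, for 1 h, the β-adrenergic agonist isoproterenol at 1 μM. Library totals ran from 17908597 to 25019834 estimated counts. All 18 samples, controls included, had received a plasmid for the β2-adrenergic receptor (β2AR) tagged with HA, were starved of serum overnight and were treated 48 h after transfection. The design asks whether the genes respond to receptor stimulation in each line, whether the response differs in the KO lines, and how each KO line differs from wildtype cells at either treatment. Whether a KO line is 1 clone or a pool is not given in the sources used here, so that a difference between lines cannot be told apart from a difference between clones. The labels call the replicates biological but do not say what was separate between them, so p-values measure the spread between these samples.

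When β2AR is occupied, Gαs raises adenylyl cyclase activity, cAMP releases the catalytic subunits of PKA from the regulatory ones, and the kinase then acts on what is near. Anchoring through an amphipathic helix of an AKAP sets what is near, and the same scaffolds often carry phosphodiesterases, phosphatases or other kinases, so that the signal is local and brief. AKAP12 (gravin) is known to bind β2AR itself.

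The stretches before 4 transcription starts are shown because AKAP1 and AKAP11 are the genes called against wildtype in both KO lines at both treatments, and because the 2 AKAP13 windows lie before the starts of transcripts whose shares are described below. Each is the 250 bases before a RefSeq start (GRCh38.p14), written 5′ to 3′, and capitals mark TGACG or CGTCA, the short site within the cAMP response element bound by CREB, a factor that PKA phosphorylates. The windows are AKAP1 at chr17:57084996-57085245, AKAP11 at chr13:42271902-42272151, AKAP13 upstream at chr15:85380353-85380602 and AKAP13 downstream at chr15:85619700-85619949, all on the plus strand.
AKAP1: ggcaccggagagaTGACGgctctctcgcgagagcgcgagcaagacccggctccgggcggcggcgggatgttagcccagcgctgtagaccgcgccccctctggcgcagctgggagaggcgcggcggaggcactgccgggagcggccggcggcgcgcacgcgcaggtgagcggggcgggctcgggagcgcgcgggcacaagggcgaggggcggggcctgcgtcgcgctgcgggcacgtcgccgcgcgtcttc
AKAP11: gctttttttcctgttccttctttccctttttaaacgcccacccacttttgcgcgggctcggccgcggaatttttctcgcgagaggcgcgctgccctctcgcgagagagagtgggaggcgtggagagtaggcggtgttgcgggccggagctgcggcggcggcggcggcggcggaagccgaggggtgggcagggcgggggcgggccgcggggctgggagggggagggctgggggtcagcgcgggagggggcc
AKAP13 upstream: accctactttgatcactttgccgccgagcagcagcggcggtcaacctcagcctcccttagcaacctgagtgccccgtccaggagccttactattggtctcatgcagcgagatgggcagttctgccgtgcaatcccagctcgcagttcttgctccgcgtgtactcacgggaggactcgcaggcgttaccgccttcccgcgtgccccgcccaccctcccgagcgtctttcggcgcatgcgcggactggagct
AKAP13 downstream: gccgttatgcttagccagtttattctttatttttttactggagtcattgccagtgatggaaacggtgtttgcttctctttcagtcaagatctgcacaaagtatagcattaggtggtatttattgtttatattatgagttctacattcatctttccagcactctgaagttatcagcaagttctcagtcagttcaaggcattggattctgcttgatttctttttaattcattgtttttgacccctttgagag
G and C made up 78.4% of the AKAP1 window, 71.6% of the AKAP11 window and 63.6% of the upstream AKAP13 window, but 36.4% of the downstream AKAP13 window. The AKAP1 window held 1 such site, which starts at its base 14, and the other 3 windows held none. In the RefSeq table, 9 of the 10 genes were found by symbol (AKAP2 was not), with 16 windows of 300 bases (250 before and 50 after a start). TGACG or CGTCA, searched as written in the strand of the gene so that each is the reverse complement of the other, was in 7 of these 16 windows, of the genes AKAP1, AKAP7, AKAP8 and AKAP9, and in 24.6% of the 35116 windows of all genes. Some of the 7 overlap and hold the same letters. The full element TGACGTCA, which contains both short sites, was in 0 of the 16 windows and in 1.85% of all windows. A match describes letters and is not evidence of binding.

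The targeted genes and the state of the libraries are given first because they bear on every comparison. Normalized counts below are expected counts per gene divided by the TMM-scaled library size and multiplied by the mean of these sizes. GNAS, which encodes Gαs, fell to 0.0501-fold of wildtype in basal Gαs KO cells, and ARRB2 fell to 0.21-fold in basal β-arrestin1/2 KO cells, whereas ARRB1, with a log2 fold change of -0.27 ± 0.14 (SE) and an adjusted p of 0.14 by edgeR, was not called there, and a small deletion need not lower an mRNA. Wildtype basal replicate 1 stood apart: the mean G and C content of its counted transcripts was 52.49%, against 49.15 to 50.1% in the other 17 libraries. Values without it are given where it changes the call of an AKAP gene and, in most cases, the size of an AKAP difference between lines. For genes of the lists below, sizes are from all 18 libraries unless stated. Their basal sizes against wildtype can change without it. Among the markers of HEK293 cells, VIM, KRT8, KRT18 and NEFL were at medians of 828, 688, 329 and 113 TPM, while PAX2, LHX1 and NEFM had medians of 2.53 TPM or less. Of the markers of other cells, CD3E had 0 counts in all libraries, PTPRC, ALB, PECAM1 and CDH5 had at most 26 counts in any library, and the fibroblast collagens COL1A1 and COL3A1 ran from 9.94 to 23.6 and from 0.323 to 5.94 TPM.

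The levels of the 10 genes spanned a wide range. Per transcript length, as TPM (counts per length, scaled to a fixed total), the median over the 18 libraries was 54.1 for AKAP1, which sits on the outer mitochondrial membrane, 50.7 for AKAP12, 41.6 for AKAP2, which binds the actin cytoskeleton, 31.0 for AKAP8, a protein of the nuclear matrix, 22.9 for AKAP13, which is also a guanine nucleotide exchange factor, 18.8 for AKAP10, 13.3 for AKAP7, 12.9 for AKAP11, 10.3 for AKAP9 and 1.66 for AKAP6. AKAP8 was above AKAP13, AKAP10 above AKAP7 and AKAP9 above AKAP6 in 18 of 18 libraries. AKAP1 and AKAP12 could not be ordered, since AKAP1 was the higher in 10 of 18 libraries, and neither could AKAP7 and AKAP11 (11 of 18) or AKAP11 and AKAP9 (9 of 18). With the length of the longest transcript in place of the estimated mix, AKAP7 and AKAP11 traded places and the others kept theirs.

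**Figure D1:**
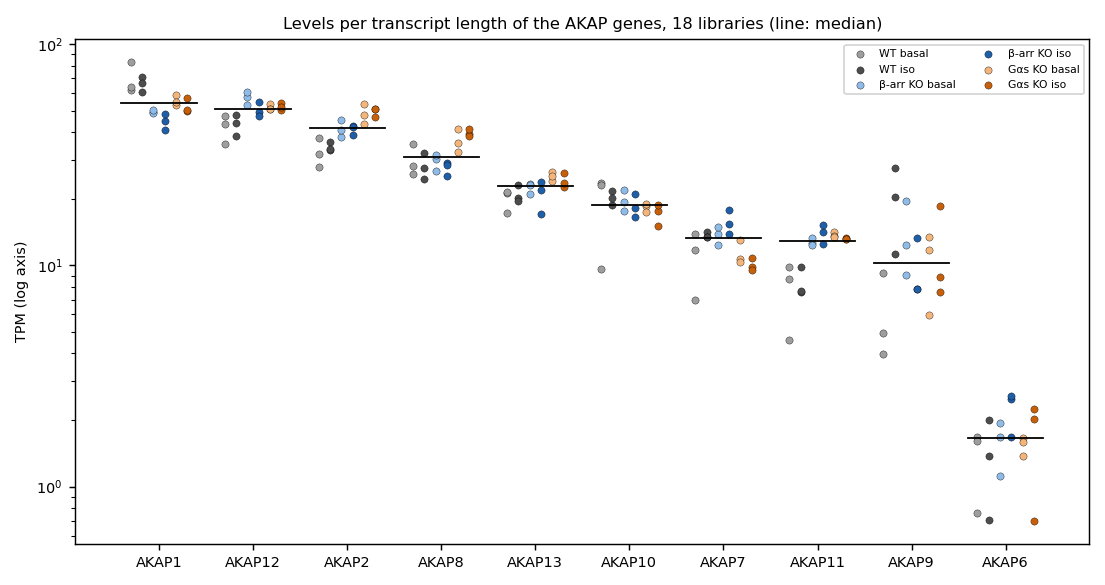
TPM of each AKAP gene (log axis) in the 18 libraries, coloured by group (WT, wildtype; β-arr KO, β-arrestin1/2 KO; iso, isoproterenol), with a line at the median of all 18. AKAP1 and AKAP12 lead with medians of 54.1 and 50.7 TPM, and AKAP6 is lowest at 1.66 TPM.

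Isoproterenol for 1 h changed none of the 10 genes past the threshold in any of the lines. edgeR's quasi-likelihood test with Benjamini-Hochberg adjustment over all genes called 0 of 10 in the wildtype line, 0 of 10 in the β-arrestin1/2 KO line and 0 of 10 in the Gαs KO line, beside 0.464%, 1.13% and 0% of all genes tested. At an unadjusted p under 0.05 there were 2, 0 and 0, and DESeq2 called 0 in each line. With so few of all genes called, 0 of 10 is close to the background in every line. The median log2 fold change of the 10 was 0.01 (wildtype), -0.06 (β-arrestin1/2 KO) and 0.02 (Gαs KO), beside -0.002, -0.008 and -0.001 over all genes. The counts were again 0, 0 and 0 without wildtype basal replicate 1, beside 1.10%, 11.7% and 0.00% of all genes. Neither did the response of any AKAP gene differ between lines past the threshold: 0 of 10 were called for β-arrestin1/2 KO minus wildtype, beside 0.168% of all genes, and 0 of 10 for Gαs KO minus wildtype, beside 0.161%, with 1 at an unadjusted p under 0.05 and 0 by DESeq2 in each.

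AKAP12, the scaffold that binds β2AR, had, with AKAP13, the smallest standard error of a response. Its log2 fold change after isoproterenol was -0.04 ± 0.08 (SE) for wildtype, -0.09 ± 0.08 for β-arrestin1/2 KO and 0.00 ± 0.08 for Gαs KO cells. AKAP13 gave -0.09, -0.07 and -0.05. The widest was AKAP9, at 0.99 ± 0.43, -0.86 ± 0.44 and 0.51 ± 0.42, none of them called, and with these standard errors a response of that size was not detectable here. AKAP6 had the lowest unadjusted p of the 30 responses, 0.012 in wildtype cells. Its normalized counts there were 69.8, 110 and 94 at basal and 65.2, 70.9 and 60.6 with isoproterenol, a log2 fold change of -0.48 ± 0.17 with an adjusted p of 0.36. The groups overlapped by the stand-apart library alone, and without it the log2 fold change was -0.64 with an adjusted p of 0.069.

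**Figure D2:**
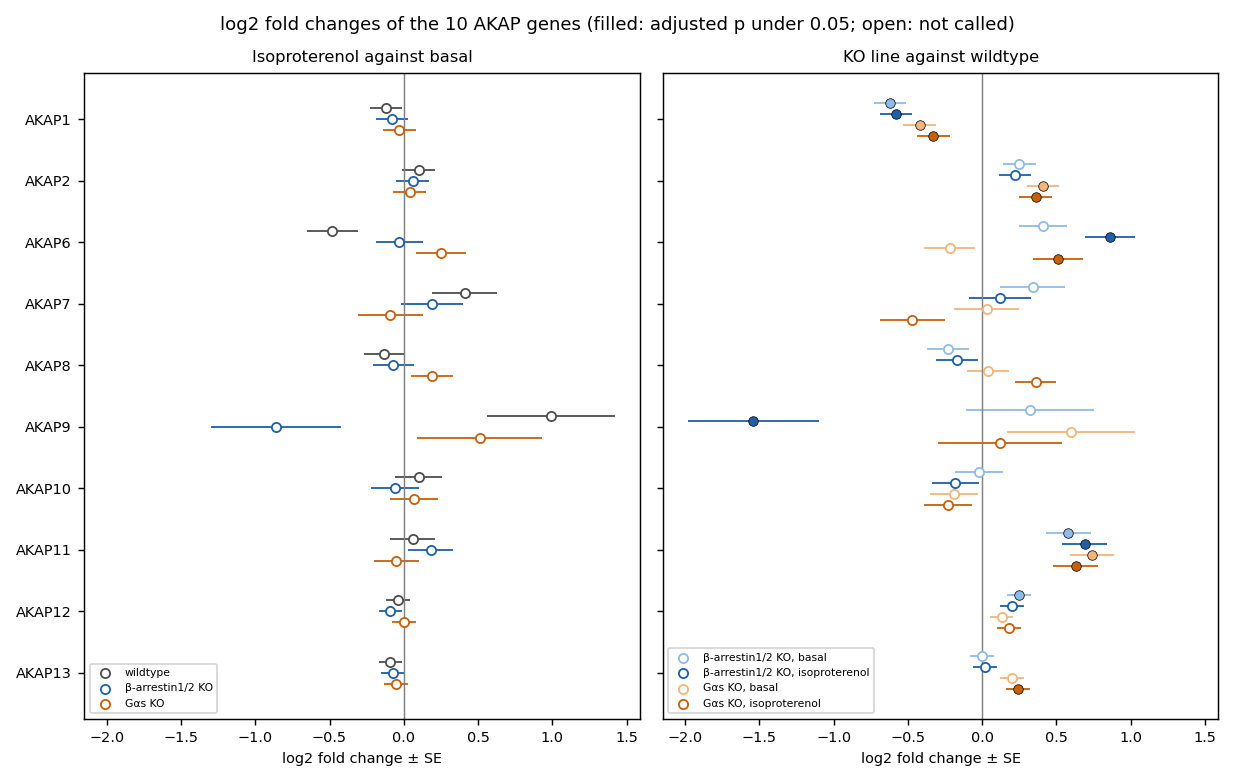
log2 fold change ± SE of each AKAP gene for isoproterenol against basal in each line (left) and for each KO line against wildtype at either treatment (right), from 1 edgeR fit over 18 libraries. Filled points have an adjusted p under 0.05: 0 of 30 on the left and 15 of 40 on the right, where AKAP1 lies to the left of 0 and AKAP11 to the right in all 4 comparisons.

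The lines themselves differed. In basal β-arrestin1/2 KO cells 3 of 10 AKAP genes were called against wildtype, AKAP11 and AKAP12 higher and AKAP1 lower, beside 33.6% of all genes (15.7% higher and 17.9% lower). In basal Gαs KO cells 3 of 10 were called, AKAP2 and AKAP11 higher and AKAP1 lower, beside 31.3% of all genes (14.2% and 17.1%). With isoproterenol 4 of 10 were called in β-arrestin1/2 KO cells, AKAP6 and AKAP11 higher and AKAP1 and AKAP9 lower, beside 30.0% of all genes (14.3% and 15.7%). In Gαs KO cells with isoproterenol 5 of 10 were called, AKAP2, AKAP6, AKAP11 and AKAP13 higher and AKAP1 lower, beside 29.9% of all genes (14.1% and 15.8%). These shares are near those of all genes, so nothing particular to these 10 genes can be read from the counts. With wildtype basal replicate 1 left out, the counts were 4, 5, 7 and 9 of 10, beside 46.7%, 45.9%, 49.6% and 49.4% of all genes. The KO lines were set against the same wildtype libraries, so the 2 lines' values are not independent of each other.

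AKAP1 (chr17:57085092-57121349, GRCh38, plus strand) was lower in both KO lines at both treatments. Its protein tethers PKA, and also mRNA, to mitochondria. Normalized counts were 3480, 2374 and 2429 in basal wildtype cells and 2604, 2577 and 2440 with isoproterenol. In β-arrestin1/2 KO cells they were 1779, 1776 and 1819 at basal and 1668, 1836 and 1581 with isoproterenol. In Gαs KO cells they were 2102, 2030 and 2062 at basal and 2145, 1920 and 1996 with isoproterenol. In bulk RNA, fewer cells with a transcript and less of it per cell cannot be told apart. Every KO library was below every wildtype library, and every β-arrestin1/2 KO library was below every Gαs KO library. The basal log2 fold change was -0.62 ± 0.11 (SE) in β-arrestin1/2 KO cells, 0.649-fold, with an adjusted p of 0.00051 by edgeR, and -0.42 ± 0.11 in Gαs KO cells, 0.748-fold, with an adjusted p of 0.0098. With isoproterenol the values were -0.58 ± 0.11 (adjusted p of 0.001) and -0.33 ± 0.11 (adjusted p of 0.037). Without wildtype basal replicate 1, where AKAP1 was highest of all 18 libraries, the basal values shrank to -0.42 and -0.22, with adjusted p of 1.2e-05 and 0.0044, both still called.

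AKAP11 (chr13:42272153-42323267, plus strand) was higher in both KO lines at both treatments. It is a scaffold of vesicles that also binds the kinase GSK3β and type 1 phosphatase. Normalized counts in wildtype cells were 560, 976 and 873 at basal and 975, 754 and 781 with isoproterenol. In β-arrestin1/2 KO cells they were 1155, 1279 and 1155 at basal and 1364, 1468 and 1231 with isoproterenol. In Gαs KO cells they were 1378, 1329 and 1318 at basal and 1304, 1273 and 1320 with isoproterenol. The lowest KO library was above the highest wildtype library at either treatment. The log2 fold change was 0.58 ± 0.15 (adjusted p of 0.0075, 1.49-fold) in β-arrestin1/2 KO and 0.74 ± 0.15 (adjusted p of 0.0013, 1.67-fold) in Gαs KO cells at basal, and 0.69 ± 0.15 (adjusted p of 0.0023) and 0.63 ± 0.15 (adjusted p of 0.0043) with isoproterenol, all by edgeR. Without wildtype basal replicate 1, where AKAP11 was lowest of all 18 libraries, the basal values were 0.38 and 0.54, with adjusted p of 0.0035 and 0.00018. AKAP1 and AKAP11 stayed called in 18 of 18 fits that each left out 1 library, except AKAP1 in Gαs KO cells with isoproterenol, which stayed called in 12 of 18 and lost its call without any 1 of the 3 wildtype or the 3 Gαs KO isoproterenol libraries.

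**Figure D3:**
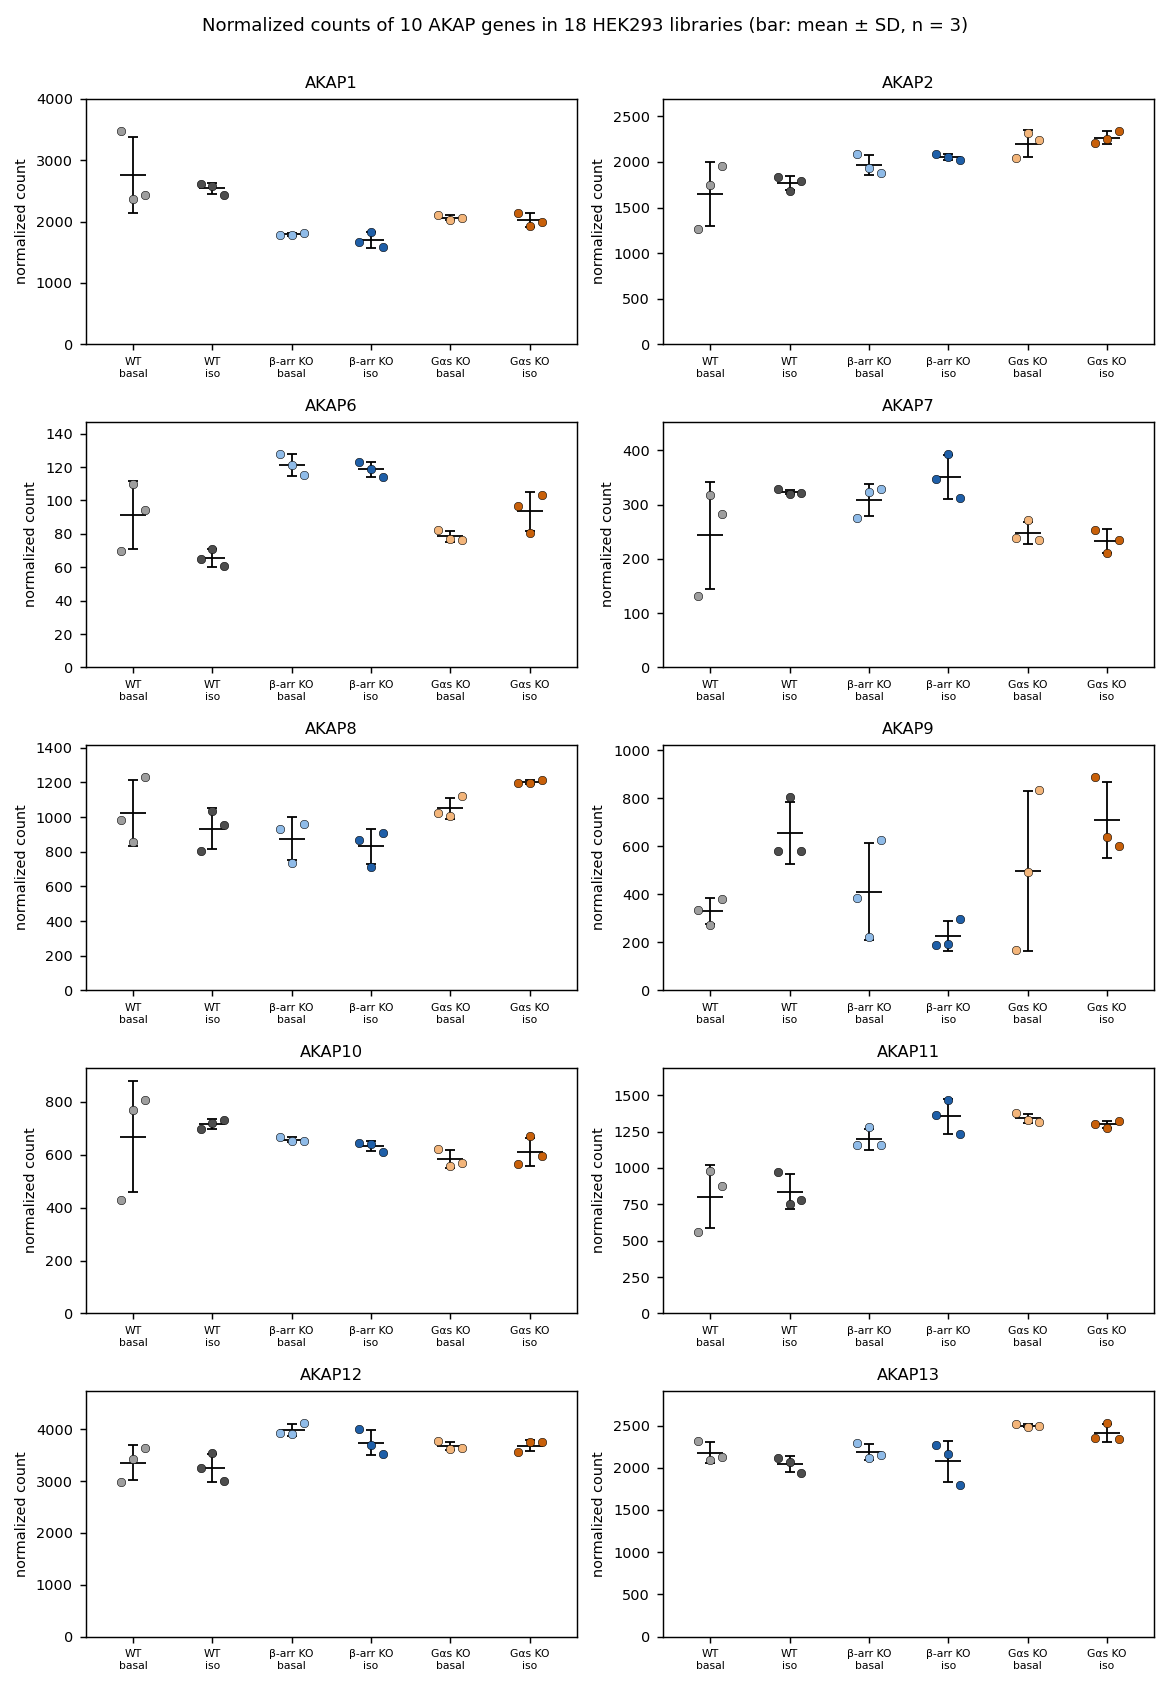
Normalized counts (linear axes from 0) of the 10 AKAP genes in each library, 3 points a group in the order of replicates 1 to 3, with bars for the mean ± SD. AKAP1 has its 12 KO points below its 6 wildtype points and AKAP11 its 12 KO points above them, and the first wildtype basal point lies away from the other 2 for AKAP1, AKAP2, AKAP7, AKAP10 and AKAP11.

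Among the scaffolds of the plasma membrane and cytoskeleton, AKAP2 was higher in Gαs KO cells. Its normalized counts were 1264, 1743 and 1950 in basal wildtype and 2038, 2319 and 2243 in basal Gαs KO cells, and 1830, 1684 and 1790 against 2208, 2249 and 2343 with isoproterenol. The groups did not overlap, with log2 fold changes of 0.41 ± 0.11 (adjusted p of 0.011) and 0.36 ± 0.11 (adjusted p of 0.025) by edgeR, and 0.25 (adjusted p of 0.0035) at basal without wildtype basal replicate 1. The call with isoproterenol did not hold in 5 of 18 leave-one-out fits (wildtype isoproterenol replicate 2 or 3, or any 1 of the Gαs KO isoproterenol replicates), with adjusted p of 0.05 to 0.094. In β-arrestin1/2 KO cells AKAP2 was at 2090, 1937 and 1881 (basal) and 2085, 2056 and 2025 (isoproterenol), with log2 fold changes of 0.25 and 0.22 that were not called (adjusted p of 0.099 and 0.17). They were, without wildtype basal replicate 1, 0.10 (adjusted p of 0.22) and 0.22 (adjusted p of 0.0036), so the latter was called, and without wildtype basal replicate 3 the basal value was called at 0.40 (adjusted p of 0.012). AKAP2 (chr9:110048598-110172512) shares exons with the read-through gene PALM2-AKAP2, so its count is uncertain to that extent; PALM2-AKAP2 itself held means of 263 to 346 normalized counts and was not called in any comparison.

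AKAP12 (chr6:151239999-151358557) had normalized counts of 2984, 3421 and 3645 in basal wildtype cells and 3933, 3906 and 4123 in basal β-arrestin1/2 KO cells, a log2 fold change of 0.25 ± 0.08 with an adjusted p of 0.025 by edgeR. The value was 0.18 (adjusted p of 0.027) without wildtype basal replicate 1, and the call was lost without β-arrestin1/2 KO basal replicate 3. With isoproterenol the counts were 3244, 3538 and 2994 against 4000, 3691 and 3526, which overlapped, and the log2 fold change of 0.20 ± 0.08 was not called by edgeR (adjusted p of 0.077) but was by DESeq2 (adjusted p of 0.047) and, by edgeR, without wildtype basal replicate 1 (0.20, adjusted p of 0.0065) or wildtype isoproterenol replicate 2 (0.26, adjusted p of 0.047). In Gαs KO cells AKAP12 was at 3765, 3627 and 3636 (basal) and 3560, 3747 and 3750 (isoproterenol), with log2 fold changes against wildtype of 0.13 and 0.18 that were not called (adjusted p of 0.23 and 0.11). Without wildtype basal replicate 1 they were 0.06 (adjusted p of 0.5) and 0.18 (adjusted p of 0.014), the latter called. AKAP12 also had the smallest spread of the 10 genes, with its highest library at 1.38-fold of its lowest.

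AKAP13 (chr15:85380571-85749358) was at 2121, 2067 and 1944 normalized counts in wildtype and 2349, 2533 and 2344 in Gαs KO cells with isoproterenol. The groups did not overlap, and the log2 fold change of 0.24 ± 0.08 was called (adjusted p of 0.039 by edgeR), but in only 6 of the 18 fits that each left out 1 library. At basal, 2319, 2097 and 2124 in wildtype against 2519, 2486 and 2497 in Gαs KO cells gave 0.20 ± 0.08 (adjusted p of 0.078), which was called without wildtype basal replicate 1 (0.24, adjusted p of 0.012) or β-arrestin1/2 KO isoproterenol replicate 3 (0.20, adjusted p of 0.045). In β-arrestin1/2 KO cells the log2 fold changes were 0.00 and 0.02. AKAP7 (chr6:131135666-131283535) has short forms that are lipid-anchored at the plasma membrane. Its counts here lay mainly on longer forms, AKAP7-204 and AKAP7-208, with 1044 and 1050 coding bases. AKAP7 had means of 244 ± 98.0 (SD) and 323 ± 4.16 normalized counts in basal and isoproterenol-treated wildtype cells, 309 ± 29.2 and 351 ± 40.8 in β-arrestin1/2 KO and 249 ± 20.5 and 233 ± 22.1 in Gαs KO cells. None of its comparisons were called with all libraries. Without wildtype basal replicate 2 the basal β-arrestin1/2 KO difference, 0.34 ± 0.22, became 0.58 and was called (adjusted p of 0.048). Without wildtype basal replicate 1 the same difference was 0.05 (adjusted p of 0.77 by edgeR). That fit also took the basal Gαs KO difference from 0.03 to -0.27 (adjusted p of 0.08). The wildtype response went from 0.41 to 0.11 (adjusted p of 0.74), and none of the 3 was called. The isoproterenol-treated Gαs KO libraries, at 254, 210 and 235, lay below the wildtype ones, at 328, 320 and 322, with a log2 fold change of -0.47 ± 0.22 (adjusted p of 0.11, and 0.0016 without wildtype basal replicate 1, which enters through the shared estimate of the spread).

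Of the nuclear scaffolds, AKAP6 (chr14:32329273-32837681), which is best known at the nuclear envelope of muscle cells, was called higher in both KO lines with isoproterenol and in neither at basal. With isoproterenol its normalized counts were 65.2, 70.9 and 60.6 for wildtype, 123, 119 and 114 for β-arrestin1/2 KO and 96.9, 80.3 and 103 in Gαs KO cells. No KO library overlapped the wildtype ones, and the log2 fold changes were 0.86 ± 0.17 (adjusted p of 0.001 by edgeR) and 0.51 ± 0.17 (adjusted p of 0.03). The Gαs KO call did not hold in 4 of 18 leave-one-out fits (wildtype or Gαs KO isoproterenol replicate 1 or 3), with adjusted p of 0.076 to 0.12. At basal the counts were 69.8, 110 and 94 for wildtype, 128, 121 and 115 for β-arrestin1/2 KO and 82.2, 76.8 and 76.2 in Gαs KO cells, with log2 fold changes of 0.41 ± 0.16 (adjusted p of 0.066) and -0.22 ± 0.17 (adjusted p of 0.34). With wildtype basal replicate 1 left out, these were 0.25 (adjusted p of 0.2) and -0.38 (adjusted p of 0.056), and without wildtype basal replicate 2 the former was called at 0.57 (adjusted p of 0.017). The test of the difference itself, the response in a KO line minus that in wildtype, gave 0.45 ± 0.23 (adjusted p of 0.96) and 0.73 ± 0.24 (adjusted p of 0.73), and 0.61 (adjusted p of 0.082) and 0.89 (adjusted p of 0.11) without wildtype basal replicate 1, none of them called. AKAP8 (chr19:15353385-15379798, minus strand), which takes part in chromatin condensation, was at 807, 1038 and 957 in wildtype and 1195, 1198 and 1217 in Gαs KO cells with isoproterenol. These groups did not overlap, and the log2 fold change of 0.36 ± 0.14 missed the threshold by edgeR (adjusted p of 0.057) and passed it by DESeq2 (adjusted p of 0.034). It also passed by edgeR without any 1 of the basal wildtype replicates (adjusted p of 0.025, 0.036 and 0.034) or without β-arrestin1/2 KO basal replicate 2 (adjusted p of 0.047). AKAP8 was at means of 1023 ± 192 and 1051 ± 59.9 in the same lines at basal, a log2 fold change of 0.04.

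AKAP9 (chr7:91940867-92110673), a very large scaffold of the centrosome and Golgi, varied most between libraries, from 169 to 890 normalized counts; within basal Gαs KO cells alone it was at 169, 492 and 833. With isoproterenol it was at 580, 806 and 580 in wildtype and 188, 193 and 299 in β-arrestin1/2 KO cells, which did not overlap. The log2 fold change was -1.54 ± 0.44 with an adjusted p of 0.014 by edgeR, and the call was lost without wildtype isoproterenol replicate 2 or β-arrestin1/2 KO isoproterenol replicate 1 or 2 (-1.36, -1.42 and -1.43, with adjusted p of 0.053 to 0.057). With protein-coding transcripts only, the value was -3.2, still called. That setting leaves out, among others, AKAP9-211, which is annotated as a retained intron. With isoproterenol AKAP9-211 was at 137 ± 30.5 (SD) normalized counts in β-arrestin1/2 KO and 111 ± 57.3 in wildtype cells. Its mean shares of the AKAP9 counts were 59.0% and 18.1%, so the larger value depends on how reads were assigned to forms. At basal the same lines gave 333, 273 and 382 against 387, 224 and 625, a log2 fold change of 0.32 ± 0.43. Basal Gαs KO against wildtype cells gave 0.60 ± 0.43 (adjusted p of 0.31), and 1.01 (adjusted p of 0.047) without Gαs KO basal replicate 1. The response in β-arrestin1/2 KO minus that in wildtype was -1.85 ± 0.61, with an unadjusted p of 0.0078 and an adjusted p of 0.52, and -3.71 (adjusted p of 0.18) with protein-coding transcripts only. Only 12 of the 16 annotated AKAP9 transcripts could be matched in the counts, and the full-length AKAP9-201 was estimated at 0 in 8 of 18 libraries, all 3 isoproterenol-treated β-arrestin1/2 KO libraries among them, and where the reads of unmatched transcripts went was not tested.

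AKAP10 (chr17:19904302-19978343, minus strand), a dual-specificity scaffold with RGS domains, was at 428, 769 and 808 normalized counts in basal wildtype, 667, 651 and 652 in basal β-arrestin1/2 KO and 623, 559 and 570 in basal Gαs KO cells. No comparison was called with all libraries, the basal log2 fold changes being -0.02 ± 0.16 and -0.19 ± 0.16. With wildtype basal replicate 1 left out, the log2 fold changes were -0.26 and -0.44 at basal (adjusted p of 0.008 and 0.00012) and -0.18 and -0.23 with isoproterenol (adjusted p of 0.034 and 0.0087), all called by edgeR. The isoproterenol-treated groups, at 696, 722 and 732 for wildtype, 646, 639 and 610 for β-arrestin1/2 KO and 566, 671 and 597 for Gαs KO cells, do not include that library, and neither KO group overlapped wildtype.

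The counts were given per transcript, so the forms behind these sums could be described. Of the transcripts of the 10 genes, 44 had enough counts to be tested. In the isoproterenol responses 0 of 44 were called in each line, beside 0.0839%, 0.172% and 0.00294% of all transcripts, with 2, 3 and 3 at an unadjusted p under 0.05. The lowest adjusted p in the wildtype response was 0.23 by edgeR, for AKAP6-201, at -1.22 ± 0.27 (unadjusted p of 0.00051). Its normalized counts in wildtype cells were 60.3, 77.4 and 78.6 at basal and 23.6, 30.0 and 39.1 with isoproterenol. Its mean share of the AKAP6 counts went from 81.2% to 47.2%, and that of AKAP6-212 from 7.41% to 38.3%. AKAP6-212 was estimated at 0 in 8 of 18 libraries, and its basal wildtype shares were 0%, 22.2% and 0%. These shares rest on few counts and were given no test. The AKAP6-201 response was -0.24 ± 0.27 without β-arrestin1/2 and 0.36 ± 0.27 without Gαs, and differences in response between lines were not tested for transcripts. In basal β-arrestin1/2 KO cells 1 of 44 was called, beside 4.32% of all transcripts. It was AKAP1-202, which held 95.9% of the counts of AKAP1, with a log2 fold change of -0.36 ± 0.08 and an adjusted p of 0.018 by edgeR. In basal Gαs KO cells 0 of 44 were called, beside 4.18% of all transcripts, with 7 at an unadjusted p under 0.05 and AKAP11-201, the single transcript of AKAP11, at 0.70 ± 0.19 and an adjusted p of 0.06. In simulated counts of this design the transcript test missed most 3-fold changes, so an uncalled transcript says little.

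Most of the genes were carried by 1 main form. AKAP11-201 held all counts of its gene, AKAP1-202 95.9%, AKAP10-201 94.5%, AKAP2-202 92.7%, AKAP8-201 75.4%, AKAP13-203 73.0%, AKAP6-201 69.9% and AKAP12-204 51.3%, as means over 18 libraries. AKAP7 was divided between AKAP7-204 (49.3%) and AKAP7-208 (47.4%). AKAP8-204, annotated as a target of nonsense-mediated decay, held 19.1% of AKAP8. AKAP9 was split among several forms, with AKAP9-201 at 37.0% and the retained-intron form AKAP9-211 at 24.2%.

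The AKAP12 forms were divided differently in Gαs KO cells, a pattern picked out after its values were seen and given with no test of the shares. AKAP12-204 and AKAP12-201 have the same 5346 coding bases, and 99.8% of the exon bases of AKAP12-201 lie in AKAP12-204, which has 1845 exon bases that AKAP12-201 lacks. The share of AKAP12-201 was 50.7%, 55.5% and 52.6% in basal and 58.2%, 60.2% and 59.4% in isoproterenol-treated Gαs KO cells. In wildtype cells it was 74.0%, 0% and 15% at basal and 0%, 23.3% and 11.3% with isoproterenol, the 74.0% being the library that stood apart. In β-arrestin1/2 KO cells it was 17%, 21.2% and 32.6% at basal and 21.9%, 11.1% and 8.14% with isoproterenol. All 6 Gαs KO libraries were thus above 11 of the other 12. AKAP12-204 mirrored this, at 33.7% to 41.5% in the 6 Gαs KO libraries and 47.3% to 75.8% in the others apart from wildtype basal replicate 1, at 22.7%. The test of the AKAP12-201 count in basal Gαs KO against wildtype cells gave 1.17 ± 1.39, with an adjusted p of 0.8. Since the forms share nearly all their exons, the split between them rests on the reads that differ between them and on the estimate that assigned the rest.

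AKAP13 has 2 forms with separate starts, one for each window printed above. AKAP13-203 (chr15:85380715-85749355) starts shortly after the upstream window and has 8439 coding bases, while AKAP13-202 (chr15:85619950-85749358) starts at the base after the downstream window and has 4302, of which 4221 are shared. The share of AKAP13-202 was 18.2%, 16.1% and 20.0% in basal and 15.8%, 11.3% and 14.1% in isoproterenol-treated Gαs KO cells. In wildtype cells it was 25.9%, 25.4% and 22.2% at basal and 21.0%, 26.3% and 42.2% with isoproterenol, while β-arrestin1/2 KO cells had 18.8%, 32.6% and 26.5% at basal and 27.9%, 24.0% and 30.6% with isoproterenol. The Gαs KO libraries did not overlap those of wildtype cells at either treatment, but 1 basal β-arrestin1/2 KO library lay within their range. The count of AKAP13-202 itself gave a log2 fold change of -0.25 ± 0.21 in basal Gαs KO against wildtype cells (adjusted p of 0.67), and that of AKAP13-203 0.29 ± 0.14 (adjusted p of 0.34). These shares too were picked out after their values were seen.

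**Figure D4:**
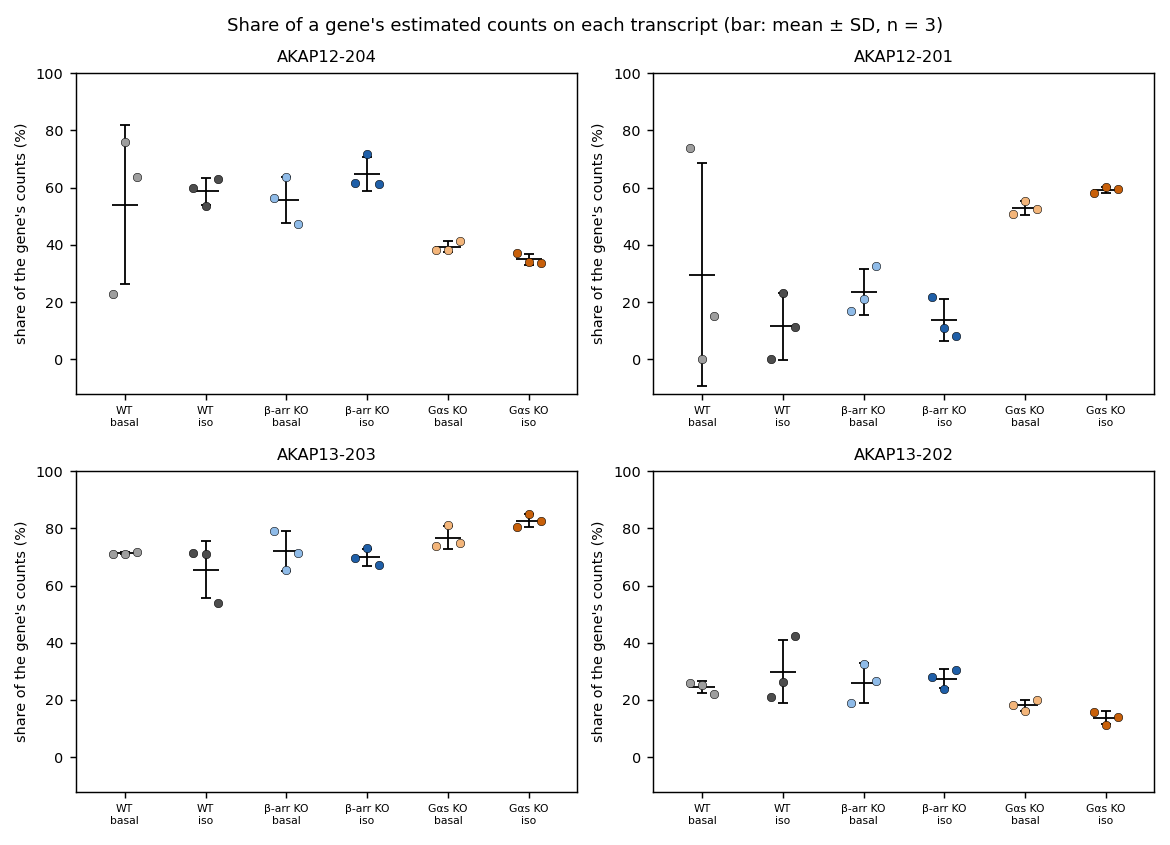
Share (%) of the AKAP12 or AKAP13 counts estimated for each of 4 transcripts, by library and group, with bars for the mean ± SD (an SD may reach below 0). AKAP12-201 lies at 50.7% to 60.2% in the 6 Gαs KO libraries and, but for 1 wildtype basal library at 74.0%, at 32.6% or less elsewhere.

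The kinase that AKAPs hold was followed with a list of 11 PKA subunits and inhibitors, of which 8 were tested. Not tested were the catalytic subunits PRKACA, with at most 19.6 counts in any library, and PRKACG, with 0 counts. Transcripts that did not match the annotation were left out of the sums, and whether PRKACA reads lay among them was not tested. The low PRKACA count is therefore not read as a lack of its mRNA. PRKAR2B, a regulatory subunit, was not tested either, as it was not among the genes summed. The counts of genes called below therefore do not cover all of PKA. None of the 8 tested was called in the isoproterenol responses (0 of 8 in each line, with 1, 0 and 0 at an unadjusted p under 0.05 and 0 by DESeq2). Against wildtype, 1 of 8 was called in β-arrestin1/2 KO cells at either treatment, beside 33.6% and 30.0% of all genes. In Gαs KO cells 5 of 8 were called at basal (2 higher, 3 lower) and 4 of 8 with isoproterenol (1 higher, 3 lower), beside 31.3% and 29.9%. The median log2 fold change of the 8 ran from -0.14 to 0.02 over the 4 comparisons, and from -0.14 to -0.06 without wildtype basal replicate 1. Without that library 6 and 5 of 8 were called at basal in the β-arrestin1/2 KO line and the Gαs KO line, and 5 and 6 with isoproterenol. Beside these, 46.7%, 45.9%, 49.6% and 49.4% of all genes were called.

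PKIA and PKIB, inhibitor peptides of the catalytic subunit, were among those called. PKIA was at 206 ± 24.1 (SD) normalized counts in basal β-arrestin1/2 KO against 464 ± 149 in wildtype cells, a log2 fold change of -1.17 ± 0.17 (adjusted p of 8.5e-05 by edgeR), and at 230 ± 9.52 against 531 ± 42.9 with isoproterenol, -1.21 ± 0.17 (adjusted p of 6.6e-05). In basal Gαs KO cells PKIA was higher by 0.46 ± 0.17 (adjusted p of 0.045), a call lost without wildtype basal replicate 1 (0.22, adjusted p of 0.062). PKIB was lower in Gαs KO cells, at 56.1 ± 6.65 against 118 ± 47.7 at basal (-1.07 ± 0.27, adjusted p of 0.006) and 51.4 ± 10.6 against 156 ± 27.9 with isoproterenol (-1.60 ± 0.27, adjusted p of 0.00028). PRKX, a kinase related to the catalytic subunits and with close copies elsewhere in the genome that make its count uncertain, was higher there by 0.94 ± 0.30 and 1.13 ± 0.31. PRKAR1A, the regulatory subunit with the highest TPM of the list, was lower in isoproterenol-treated Gαs KO cells, at 4971 ± 277 against 6833 ± 48.8 (-0.46 ± 0.09, adjusted p of 0.00088).

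Of 21 genes listed as other anchoring proteins 18 were tested, and 0 were called in the responses, with 0, 2 and 1 at an unadjusted p under 0.05 and 0 by DESeq2. Against wildtype 6 of 18 (5 higher) and 4 of 18 (2 higher) were called at basal in the β-arrestin1/2 KO line and the Gαs KO line, and 7 (6 higher) and 5 (5 higher) with isoproterenol, beside 33.6%, 31.3%, 30.0% and 29.9% of all genes, with medians of 0.15, 0.12, 0.07 and 0.02. Among those called higher were MAP2, a microtubule protein of neurons, at 509 ± 38.2 normalized counts in basal Gαs KO and 174 ± 28.4 in basal β-arrestin1/2 KO cells against 51.9 ± 24.5 in wildtype (3.30 ± 0.24 and 1.75 ± 0.24), CBFA2T3, a corepressor, at 92.0 ± 16.9 and 140 ± 9.51 against 57.3 ± 5.05, and AKAP3, a protein of the sperm tail, at 96.9 ± 7.78 against 38.0 ± 2.94 in isoproterenol-treated Gαs KO and wildtype cells. Also called were NBEA, higher by 0.65 ± 0.11 in basal β-arrestin1/2 KO cells, PALM2, lower by 0.67 in basal Gαs KO cells, and MYRIP, at a mean of 2.77 counts in isoproterenol-treated wildtype cells and 17.8 and 14.2 in the KO lines. PALM2, which the read-through gene PALM2-AKAP2 joins to AKAP2, is not itself known to anchor PKA. Without wildtype basal replicate 1 the counts were 8, 8, 9 and 7 of 18, beside 46.7%, 45.9%, 49.6% and 49.4% of all genes, and 2 of 18 were called lower in the β-arrestin1/2 KO response, beside 11.7% of all genes called.

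All 20 partners held by AKAPs, among them phosphodiesterases, phosphatases and kinases, were tested. In the responses 0 of 20 were called by edgeR, with 1, 2 and 1 at an unadjusted p under 0.05 and 2 called by DESeq2 in β-arrestin1/2 KO cells. At basal 6 (4 lower) and 8 (5 lower) were called in the β-arrestin1/2 KO line and the Gαs KO line, and with isoproterenol 6 (5 lower) and 6 (4 lower), beside 33.6%, 31.3%, 30.0% and 29.9% of all genes. PDE4D, which degrades cAMP at several AKAPs, was lower in Gαs KO cells, at 382 ± 8.5 against 712 ± 243 at basal (-0.90 ± 0.17, adjusted p of 0.00085) and 359 ± 9.05 against 940 ± 48.3 with isoproterenol (-1.39 ± 0.17, adjusted p of 1.6e-05). PDE4B fell by 1.14 and 1.5 on the log2 scale and PDE7A by 0.60 and 0.83 in the same comparisons. In β-arrestin1/2 KO cells CSNK1E was lower by 0.53 and 0.50, PDE4D lower by 0.53 at basal and PDE7A lower by 0.57 with isoproterenol. With wildtype basal replicate 1 left out, 12, 12, 12 and 11 of 20 were called against wildtype, beside 46.7%, 45.9%, 49.6% and 49.4% of all genes, 0 in the responses of wildtype and Gαs KO cells and 5, all higher, in the response of β-arrestin1/2 KO cells, beside 11.7% of all genes.

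The genes whose levels went most like each AKAP gene are given as a description, by Pearson's r over 18 libraries that share the differences in base composition and length noted above, with no test. For AKAP1 they were ANKRD13B, TTLL12 and FASN, each at r = 0.98, and 0.96 over the 17 libraries without wildtype basal replicate 1. For AKAP11 they were RB1, TEAD1 and DIAPH3, each at 0.97 (0.94 to 0.96 over 17). For AKAP2 they were PROS1, MSANTD4 and GBP2 (0.95), for AKAP7 RALGPS2 and C9orf72 (0.96 and 0.95), for AKAP10 TLK2, TCEA1 and OSGEPL1 (0.93 to 0.94), for AKAP13 SPTBN1, GON4L and TEP1 (0.89 to 0.94) and for AKAP12 MYRIP, CD200R1 and OSBP (0.87 to 0.93). AKAP6 (CREG2, PCLO and SNX19, 0.87 to 0.88), AKAP8 (TNFRSF25, CYB561 and AC018638.1, 0.82) and AKAP9 (CYP2C18, AC104758.3 and CSPG4P10, 0.75 to 0.84) had lower values. Among the 10 genes, AKAP1 and AKAP11 had the lowest r over 18 libraries, -0.85, but over the 17 it was -0.73, and AKAP7 with AKAP8 (-0.80), AKAP10 with AKAP11 (-0.78) and AKAP2 with AKAP10 (-0.76) were lower.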

How the data were processed

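Poly-A RNA of 18 HEK293 samples was sequenced in paired reads of 150 bp. The deposited values are expected counts per transcript, which the authors estimated with Salmon 1.7.0; the strand setting and annotation release are not given in the sources used here. Of 184844 transcripts, 161798 matched GENCODE 29 (GRCh38) and were summed to 34255 genes, which held 92.9 to 93.7% of each library's counts; the other 23046 were left out. Totals ran from 17908597 to 25019834 (median 20419460), and no intervals of counting error are given. Sums were rounded and tested with edgeR 4.0.16 (R 4.3.3; TMM, filterByExpr, quasi-likelihood F-test) in 1 fit over all 18 libraries with a coefficient per group, in 9 comparisons, 5 for transcripts. A gene is called where its p, adjusted over all genes tested by Benjamini-Hochberg, is under 0.05. SE is that of the log2 fold change. TPM were computed from the same counts and the transcript lengths.

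The AKAP genes and the gene lists were chosen with earlier results of these data known. Genes of the lists are named where they were called, and the genes most like each AKAP gene by Pearson's r of log2 values with a pseudocount of 0.5. Alternatives were DESeq2 1.42.0 (its test and its size factors), upper-quartile scaling, other filters, protein-coding transcripts, the read-through gene added to AKAP2, only the groups compared, offsets for GC content and length, a replicate block, and leaving out each library. The fits were tested on simulated counts. The gene test recovered nearly all changes of 3-fold or more there. The transcript test missed most 3-fold changes and was accepted on larger ones, a requirement loosened after that result was seen. Changes smaller than 3-fold were not simulated, so the recovery does not speak for differences of the size seen in most AKAP genes. The values of a few other genes are not reported here. Figures were drawn with matplotlib 3.10.9.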

Additional observations from a re-analysis of the deposited data

How the results depend on the processing

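Of 2610 values of single AKAP genes under the alternatives, 2514 stayed on the same side of the threshold, 63 of these with the opposite sign, 55 passed it only under the alternative and 41 no longer passed it. The 63 were called neither with the main settings nor under the alternative, so their direction is not read, and no called value changed sign. Restricting the fit to the libraries of the groups compared gave 0 AKAP genes called in both basal comparisons, 7 in isoproterenol-treated β-arrestin1/2 KO and 9 in isoproterenol-treated Gαs KO cells. Over all genes, calls also fell at basal and rose with isoproterenol under this restriction, as given at the end. Offsets for GC content and length gave 1 (AKAP6) in the wildtype response, beside 1.46% of all genes. They gave 5 in basal Gαs KO cells, and 7 and 8 with isoproterenol in the β-arrestin1/2 KO and Gαs KO lines. Upper-quartile scaling gave 5 in basal β-arrestin1/2 KO cells, and no filter on low counts gave 3 and an adjusted p under 0.01 gave 1 in isoproterenol-treated Gαs KO cells. Asking also for a log2 change of 1 or more in size left 0, 0, 1 and 0 in the 4 comparisons of lines. Leaving out 1 library gave 2 to 5 in basal β-arrestin1/2 KO, 3 to 5 in basal Gαs KO, 3 to 7 in isoproterenol-treated β-arrestin1/2 KO and 1 to 9 in isoproterenol-treated Gαs KO cells, and 0 in every response and response difference. The lowest value of 1 was reached without wildtype isoproterenol replicate 3 or Gαs KO isoproterenol replicate 1 or 3. The highest of 9 was reached without wildtype basal replicate 1, beside 49.4% of all genes. For transcripts, leaving out 1 library gave 0 to 2 in basal β-arrestin1/2 KO, 0 to 4 in basal Gαs KO cells and 0 in the responses; at least 10 counts in every library gave 1 in the wildtype response, 2 in basal β-arrestin1/2 KO and 1 in basal Gαs KO cells, and DESeq2 size factors gave 1 in basal Gαs KO cells. Most of these counts are given without the share of all genes under the same setting, so nothing particular to the AKAP genes can be read from them. The causes were not tested.

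Same-numbered replicates did not visibly deviate together (correlations of -0.0993 to 0.0766 over 21 pairs). This cannot show whether same-numbered samples were prepared together, which the labels do not say. A replicate block gave 3, 3, 4 and 6 AKAP genes called in the 4 comparisons of lines, and with offsets for GC content and length 4, 5, 6 and 8. These counts too are given without the shares of all genes.

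Over all genes, the wildtype response had 72 genes called, 187 by DESeq2, 13 with only the groups compared, 226 with offsets and 173 without wildtype basal replicate 1. The β-arrestin1/2 KO response had 175, and 291, 1161, 373 and 1849 in the same order, and the Gαs KO response 0, with 9 by DESeq2. The response differences had 26 (104, 10, 121 and 1302) and 25 (68, 15, 56 and 66). With only the groups compared, the basal comparisons went from 5208 to 1501 and from 4864 to 1587, and those with isoproterenol from 4653 to 7221 and from 4646 to 7454.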
